A study of Mus musculus with 16 samples.

Results

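Passage-linked change of miRNAs in DNA repair-deficient cells was measured by comparing late-passage (passage 7, P7) with early-passage (passage 3, P3) Ercc1-/- primary mouse embryonic fibroblasts (MEFs). The comparison used the 8 Ercc1-/- arrays of a series of 16, chosen by their genotype label: 4 arrays at P7 and 4 at P3. At each passage 2 arrays came from cells grown in 20% O2 and 2 from cells grown in 3% O2, numbered replicate 1 and replicate 2. All cells, the 8 WT arrays included, were primary fibroblasts of midgestation embryos on a mixed FVB/n C57Bl/6 background, harvested just short of confluence. Both passages share the Ercc1 deletion, and the labels name no transgene or added agent besides the oxygen level. The methods give 2 independent cell lines per group, so a replicate number may stand for a line. The p-values of the main comparison measure the spread left between arrays after oxygen and replicate number are fitted. They count the 2 oxygen levels of a replicate as separate samples and do not measure the spread between lines. Ercc1 mRNA is not measured on a miRNA array, so the knockout could not be checked here. The question of the comparison is which miRNAs shift between early and late passage in repair-deficient fibroblasts. In the study 3% O2 served to prevent senescence, so that 2 of the 4 P7 arrays come from cells not meant to be senescent. Senescence itself was not measured on these arrays.

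MiRNAs are short RNAs that guide Argonaute proteins to partly complementary messenger RNAs, mainly through the seed, bases 2 to 8 of the mature strand, so that miRNAs with the same seed share many targets. ERCC1-XPF is a nuclease of nucleotide excision repair and crosslink repair, and fibroblasts without it accumulate DNA damage and stop dividing early. Cellular senescence is a lasting arrest of the cell cycle enforced by the p53 and p16 pathways, and 20% O2 hastens it in mouse fibroblasts.

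The miRNAs that moved most included families with a shared seed on the lower side, while the higher ones that could be matched had no seed in common. The sequences below are mature miRNAs from RefSeq (GRCm38.p6), 5′ to 3′, with the seed in capitals. Of the 611 mouse miRNA names on the array, 162 are spelled the same in RefSeq. For older names without an arm, the arm whose seed the family shares was taken, and the other arms differ in seed in the let-7 and miR-15/16 families. The let-7 family and its member miR-98 are shown because 8 of its 10 tested members were lower at P7:
let-7a: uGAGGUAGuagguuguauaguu
let-7c: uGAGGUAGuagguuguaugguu
let-7d: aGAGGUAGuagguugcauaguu
let-7e: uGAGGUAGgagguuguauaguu
let-7f: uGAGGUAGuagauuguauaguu
let-7g: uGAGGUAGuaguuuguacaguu
let-7i: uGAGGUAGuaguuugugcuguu
miR-98: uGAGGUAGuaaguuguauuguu
The miR-15/16 family is shown because all 6 members were lower at P7. MiR-322 is the mouse form of human miR-424:
miR-15a: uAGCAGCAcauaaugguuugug
miR-15b: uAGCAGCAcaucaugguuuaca
miR-16: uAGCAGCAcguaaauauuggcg
miR-195: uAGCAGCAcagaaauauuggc
miR-497: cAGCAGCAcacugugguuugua
miR-322: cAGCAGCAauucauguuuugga
Other miRNAs among the 12 with the largest fall are shown with miR-26a, which has the seed of miR-26b, differs from it at 2 of 21 positions and did not pass the test:
miR-26b: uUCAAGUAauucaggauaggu
miR-26a: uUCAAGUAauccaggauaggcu
miR-199a-3p: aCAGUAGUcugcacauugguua
miR-10b: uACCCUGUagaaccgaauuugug
miR-450a-5p: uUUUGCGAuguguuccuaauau
The miRNAs with the largest rise for which RefSeq has the same name, and miR-129-5p, have no seed in common:
miR-188-5p: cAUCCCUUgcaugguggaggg
miR-671-5p: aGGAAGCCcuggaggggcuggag
miR-1892: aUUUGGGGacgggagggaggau
miR-1896: cUCUCUGAuggugggugaggag
miR-1894-3p: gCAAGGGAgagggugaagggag
miR-705: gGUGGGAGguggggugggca
miR-129-5p: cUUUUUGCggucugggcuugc
Members of the miR-99/100 family, which did not move together, are shown last, since miR-99b was higher and both others lower:
miR-99a: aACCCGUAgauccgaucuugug
miR-100: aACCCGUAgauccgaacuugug
miR-99b: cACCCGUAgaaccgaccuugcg
Of the 12 leading miRNAs in each direction, a mature sequence was matched for 10 of the lower and 6 of the higher ones. G and C made up 30.4% to 43.5% of the bases of the 10 lower sequences and 59.1% to 75% of the 6 higher ones, and miRNAs without a match were not compared. Called miRNAs beyond these 16 did not keep to those ranges: miR-721, which was higher, has 42.9%, and miR-497, miR-99a and miR-100, which were lower, have 50%.

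A value below is the processed signal of a miRNA, scaled to an equal mean over the 57 mouse miRNAs above background on every array, on the log2 scale with a floor of 1.5; 1 unit is a 2-fold difference. The 8 arrays differed in brightness. The P3 arrays had 178 to 257 mouse miRNAs above background and the P7 arrays 117 to 245. The means were 221.5 ± 39.6 and 173 ± 53.7 (SD, n = 4; exact permutation test, two-sided, p = 0.143, the smallest p 4 against 4 arrays allow being 0.0286). That test leaves out the pairing by slide and oxygen. Between arrays of the same oxygen level and replicate the count fell each time. In replicates 1 and 2 it fell from 253 to 155 and from 198 to 175 in 3% O2. In 20% O2 it fell from 257 to 245 and from 178 to 117. The mean log2 signal over the 57 miRNAs before scaling was 9.08 ± 0.75 at P3 and 7.48 ± 1.41 at P7 (exact permutation test, two-sided, p = 0.114). The P7 array in 20% O2 of replicate 2 was the dimmest, at 5.80, and correlated with the P3 arrays at a mean Pearson r of 0.26 over the tested miRNAs, against 0.91 for the other P7 array in 20% O2. Each replicate number is 1 slide and 1 scan, and on both slides the P3 arrays lay in the first row and the P7 arrays in the second, so that passage and row cannot be told apart. Mesenchymal miRNAs marked the cells as labelled: 16 of 16 were above background on at least 1 array and 12 on all 8, their summed level ranging from 14.32 to 14.56 at P7 and from 14.55 to 14.64 at P3. None of 7 epithelial markers, miR-200 family members included, was above background on any array. Neural markers summed to between 6.37 and 6.84 at P7 and between 5.30 and 6.02 at P3; 3 of the 9, miR-129-5p described below among them, were above background on some array, and miR-9, miR-124, miR-137 and miR-138 were above it on none.

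**Figure D1:**
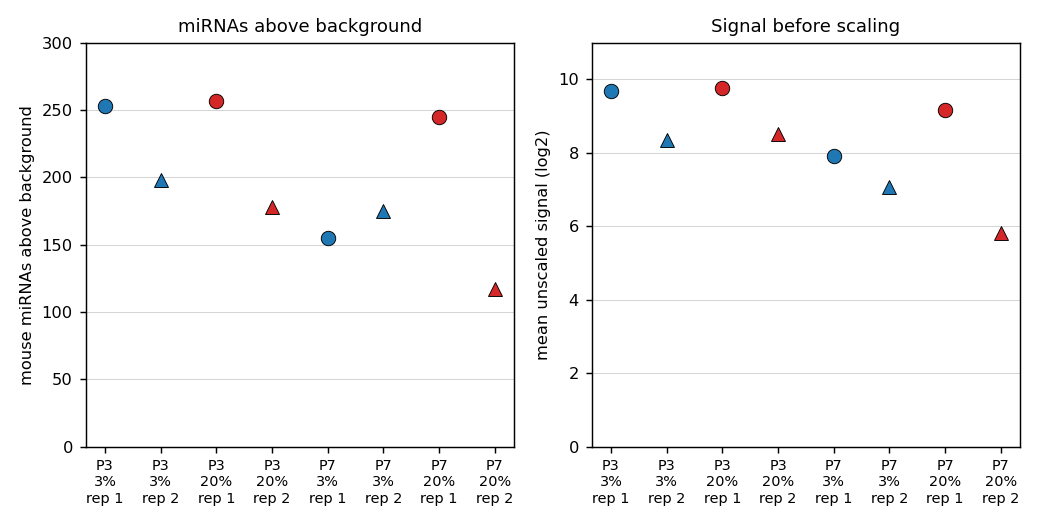
Number of mouse miRNAs above background (left) and mean log2 signal over 57 common miRNAs before scaling (right) on the 8 Ercc1-/- arrays, by passage, oxygen and replicate; circles are replicate 1, triangles replicate 2, blue 3% O2 and red 20% O2. The counts run from 117 to 257, and the P7 array in 20% O2 of replicate 2 is lowest in both panels.

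Of the 225 mouse miRNAs tested, 51 were higher at P7 and 69 were lower (limma, adjusted p under 0.05, oxygen and replicate as blocks). These are 22.7% and 30.7% of the miRNAs tested, 53.3% in all, and the median change over the 225 was -0.47. In 116 of the 120 called miRNAs all 4 matched pairs of arrays moved one way, and in 97 the P7 and P3 arrays did not overlap; over all 225, 110 (48.9%) did not overlap. The calls rest on treating the 2 oxygen levels of a replicate as separate samples, and on single arrays: without the P7 array in 3% O2 of replicate 1, 14 miRNAs passed, and without that of replicate 2, 20. Without the P3 array of replicate 2 in 3% O2 47 passed, and without that in 20% O2 58. Without the dimmest array, P7 in 20% O2 of replicate 2, 116 passed. With no filter on dim miRNAs, 611 were tested and 3 passed. The common floor, a scaled signal of 2.82, lies below the lowest signal above background on the P7 arrays of replicate 2 (7.82 in 3% O2 and 14.2 in 20% O2). With every array raised to its own lowest signal above background, called its own floor below and added after seeing the data, 112 passed (55 higher, 57 lower), among them all 51 of the higher and 56 of the 69 lower miRNAs. With the arrays of 1 replicate number and passage as a random block (correlation 0.65), limma called 0 miRNAs at an adjusted p under 0.05, with 76 at an unadjusted p under 0.05 and a smallest adjusted p of 0.0808. In the paragraphs that follow, "rose" and "fell" refer to the fit with fixed blocks.

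The balance of the calls moved with the scaling. Without scaling, 16 miRNAs were higher and 121 lower, with a median change of -1.73; scaled to the mean over all mouse miRNAs, 34 were higher and 90 lower; scaled to the 75th percentile of the common miRNAs, 60 were higher and 47 lower; with normexp background correction, 111 were higher and 31 lower. Without scaling, all 69 lower miRNAs stayed lower in sign and 44 of the 51 higher ones stayed higher. The unscaled signal fell from P3 to P7 in all 4 pairs, so that without scaling a lower miRNA could hardly turn higher. Both slides moved the same way, but not by the same amount. The change was larger on slide 2, which holds the dimmest P7 arrays, in 51 of 51 higher and 63 of 69 lower miRNAs, and the change had an SD of 1.24 across all 225 tested miRNAs on slide 1 and of 3.04 on slide 2. In 20% O2 the median changes of the 51 higher and 69 lower miRNAs were 0.96 and -0.96 in replicate 1, where the unscaled signal fell by 0.62 from P3 to P7, and 4.67 and -3.60 in replicate 2, where it fell by 2.70. In 3% O2 they were 1.68 and -1.86 in replicate 1, where it fell by 1.77, and 2.91 and -3.07 in replicate 2, where it fell by 1.29. The larger changes thus went with the larger loss of signal in 20% O2 but not in 3% O2. They went with the dimmer P7 array in both oxygen levels. The unscaled signal of the P7 arrays of replicates 1 and 2 was 9.16 and 5.80 in 20% O2, and 7.91 and 7.06 in 3% O2. The part of signal strength in the size of the changes was not tested.

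**Figure D2:**
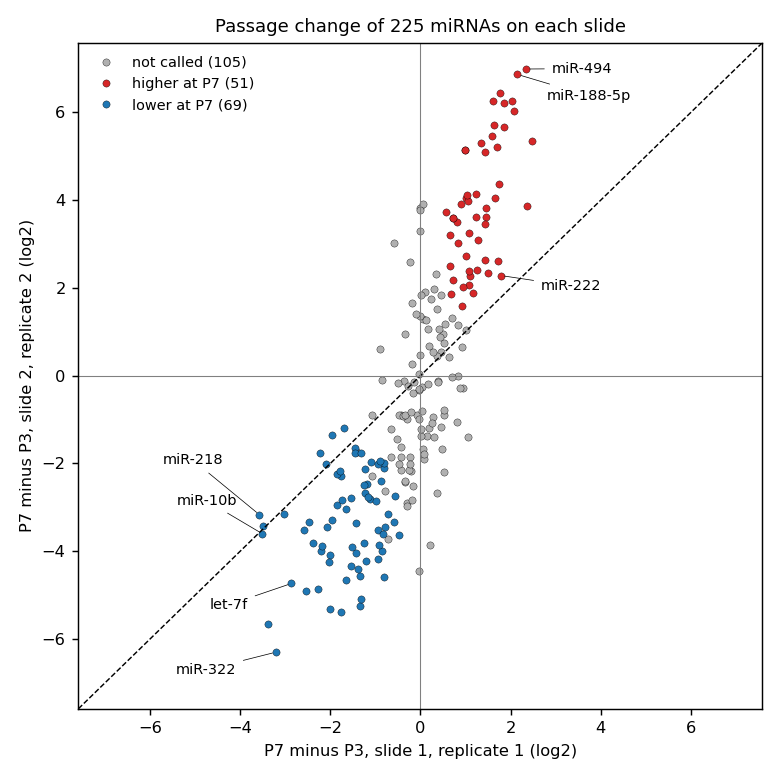
Change from P3 to P7 on slide 1 (replicate 1, x axis) and slide 2 (replicate 2, y axis), log2, for the 225 tested miRNAs; each point is 1 miRNA averaged over both oxygen levels, coloured by its call, and the dashed line marks equal change. The 51 higher miRNAs lie above the line, and most of the 69 lower ones below it.

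The let-7 family, abundant miRNAs of differentiated cells that repress growth genes such as Ras and Hmga2, was lower at P7 in Ercc1-/- MEFs. Of its 10 tested members 8 fell and none rose, beside 30.7% and 22.7% of all tested miRNAs. The median change was -2.90 against -0.47 over all tested miRNAs. That median was below the median of all miRNAs under each of the 8 processings run, from -4.06 without scaling to -1.81 with normexp. The processings are the scalings, normexp and the software's total signal. A scaling by 1 factor per array, or none, shifts all miRNAs of an array alike and hardly alters the family's distance from the overall median. That distance was -2.43 in the main fit, -2.22 with quantile normalization, -2.45 with normexp and -1.66 with the total signal. Let-7f was the member with the largest fall. In 3% O2 of replicates 1 and 2 and then 20% O2 of replicates 1 and 2, its P3 values were 10.85, 10.26, 11.04 and 10.26, and its P7 values were 7.42, 5.05, 8.75 and 5.99. Every P7 array was below every P3 array, and both slide 2 arrays were lower than both slide 1 arrays at P7. The change was -3.80 ± 0.54 (SE, n = 4 against 4), or 13.9-fold, with a limma adjusted p of 0.00377. Let-7a, which differs from let-7f at 1 of 22 positions, fell by 3.11 on the log2 scale (adjusted p = 0.00523), let-7d by 3.05, let-7g by 3.03, miR-98 by 3.10 (0.02 with normexp) and let-7e by 2.76. Let-7c and let-7i moved least among the members that fell, with changes of -2.17 and -1.96. Let-7b, at -0.93, did not pass the test, and neither did let-7d*, the opposite strand of the let-7d hairpin, at 0.01. Sequences that differ at 1 base can share signal on hybridization arrays, and cross-hybridization within the family was not tested.

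The miR-15/16 family, which targets cyclins D and E and Bcl2, was lower in all 6 members, beside 30.7% of all tested miRNAs. Its median change was -3.29. That was again below the median of all miRNAs under each of the 8 processings. The distance was -2.82 in the main fit, -2.64 with quantile normalization, -1.71 with normexp and -2.06 with the total signal. MiR-322 had the largest fall of the 69 lower miRNAs. Its P3 values, in the order above, were 9.92, 10.68, 9.34 and 9.57, and its P7 values 5.47, 3.19, 7.38 and 4.46. The lowest P3 array was above the highest P7 array. It fell 27-fold (log2 -4.75 ± 0.78, adjusted p = 0.00523), by 3.21 on slide 1 and by 6.30 on slide 2. MiR-195 and miR-497, transcribed together from chromosome 11 (miR-195 at chr11:70235062-70235082, GRCm38.p6), changed by -3.72 and -2.91, and by -2.77 and -2.34 with own floors. MiR-15b, at chr3:69009775-69009796 next to a copy of miR-16, was between 8.28 and 8.69 on the P3 arrays and 5.49, 4.19, 7.15 and 2.38 on the P7 arrays. The change of miR-15b was -3.67 ± 0.81, with no overlap between passages. MiR-16 and miR-15a, which are also made as a pair from chromosome 14, changed by -2.39 and -2.42, and on slide 1 alone by -0.91 and -0.84.

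**Figure D3:**
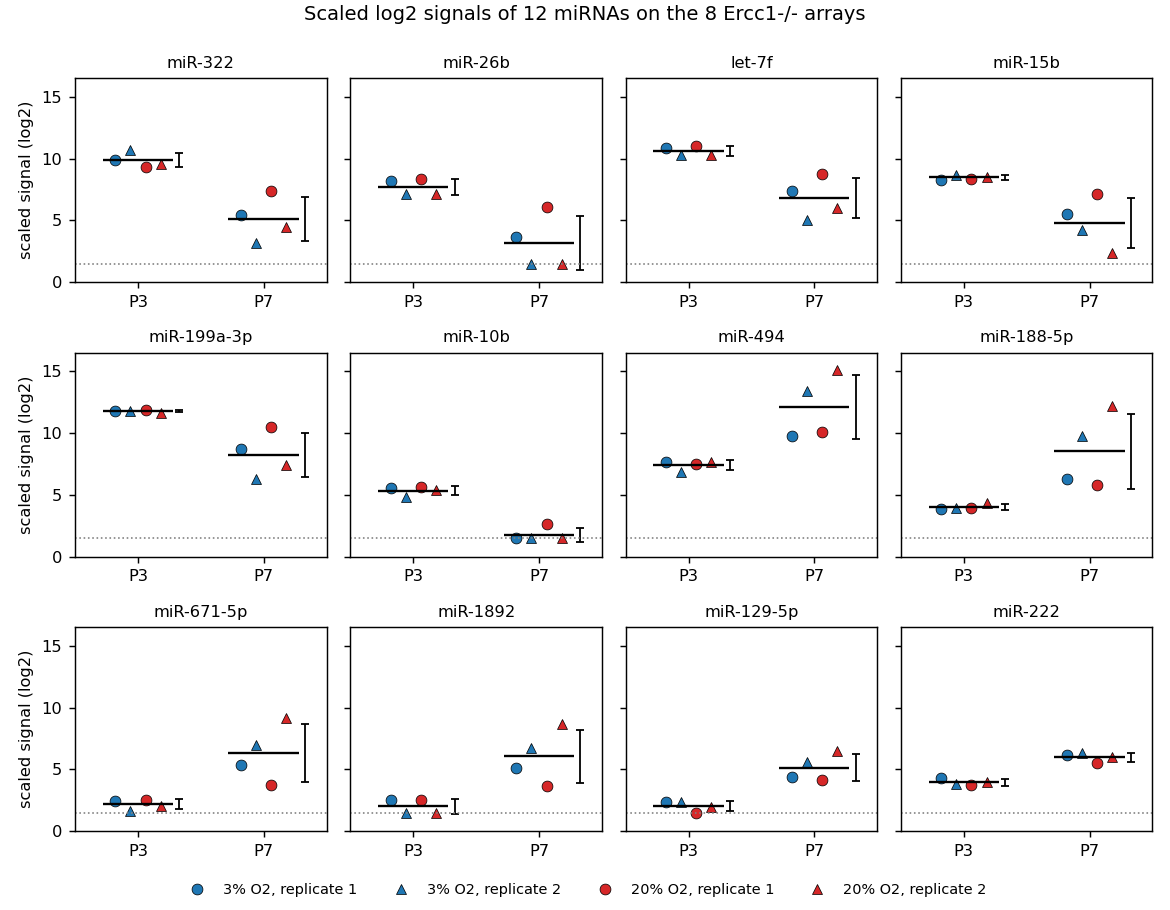
Scaled log2 signals of 12 miRNAs on the 8 Ercc1-/- arrays, P3 on the left and P7 on the right of each panel; points are arrays (blue 3% O2, red 20% O2, circles replicate 1, triangles replicate 2), the line is the mean, the bar to its right ± 1 SD (n = 4), and the dotted line the floor at 1.5. P7 points spread more widely than P3 points for most of these miRNAs, and in most panels the P7 triangles lie farther from P3 than the P7 circles.

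MiR-322 also heads an X-linked cluster with miR-503, miR-542 and miR-450, a cluster known for slowing the cell cycle in differentiating muscle. Of its 8 tested members 7 fell and none rose (median -2.56), beside 30.7% and 22.7% of all tested miRNAs. The median stays negative under 7 of the 8 processings and turns to 0.33 with normexp, where the median of all miRNAs was 0.64. MiR-450a-5p, encoded at chrX:53048206-53048227 and at a second copy beside it, was 6.39, 5.33, 6.03 and 4.50 at P3 and 1.5, 1.5, 3.93 and 1.5 at P7. Only the P7 array in 20% O2 of replicate 1 was above the floor, and the change of -3.46 was -2.46 with own floors. MiR-503 changed by -2.93, miR-542-3p by -2.73 and miR-450b-3p by -1.99; miR-542-3p and miR-450b-3p turned positive with normexp. MiR-450b-3p was not above background on any P7 array and was at least 1.99-fold lower there, but did not pass with own floors (limma adjusted p = 0.176).

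Outside these families the miRNAs with the largest falls have varied roles. MiR-26b, known to target the chromatin modifier Ezh2, was 8.16, 7.14, 8.37 and 7.16 at P3 and 3.67, 1.5, 6.10 and 1.5 at P7, where both slide 2 arrays were at the floor. The fitted fall was 22.9-fold with the common floor (limma adjusted p = 0.00377) and 11.8-fold with own floors (limma adjusted p = 0.00366). MiR-26a, with the same seed, was 10.34, 9.80, 10.35 and 9.87 at P3 and 10.74, 9.40, 10.26 and 7.53 at P7, a change of -0.61 ± 0.54 (limma adjusted p = 0.354). The difference between the 2 changes was not tested. MiR-199a-3p, a mesenchymal miRNA that targets Mtor and Met, was one of the brightest signals, between 11.64 and 11.90 on the P3 arrays. At P7 it was 8.68, 6.30, 10.49 and 7.40, a fall of 3.57 ± 0.65 with no overlap. MiR-148a, which targets DNA methyltransferases, changed by -3.57, and miR-335-5p, from an intron of the imprinted gene Mest, by -3.20 (-2.97 and -2.25 with own floors). P7 values of miR-335-5p overlapped those of P3.

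Among dim miRNAs, the size of several falls moved with the floor. MiR-10b, from the HoxD cluster, was 5.55, 4.82, 5.60 and 5.36 at P3 and at the floor on all P7 arrays but the one in 20% O2 of replicate 1, at 2.63. Its change was -3.56 ± 0.43, with an adjusted p of 0.00299, the smallest of the comparison together with that of miR-218. With own floors it was -2.56, -3.41 on slide 1 and -1.70 on slide 2 (limma adjusted p = 0.00584). MiR-10a, from the HoxB cluster, differs from it at 1 of 23 positions and changed by -1.68. MiR-218, made from introns of Slit2 and Slit3, changed by -3.37 and miR-204, from an intron of Trpm3, by -3.10. MiR-218 was at the floor on 3 of 4 P7 arrays, and miR-204 was above background on 1 of 4. With own floors these changes were -2.37 (-3.47 on slide 1, -1.27 on slide 2) and -3.03 (-3.04 and -3.02). With normexp the changes of miR-10b, miR-10a and miR-218 turned positive, at 0.06, 0.35 and 0.17. Many lower miRNAs were dim at P7: 40 of the 69 were at the floor on at least 1 P7 array, 3 were above background on no P7 array, and 12 were above background on all 4. By their P3 level, brighter miRNAs tended to fall and dimmer ones to rise. Over the tested miRNAs the mean P3 signal correlated with the change at a Pearson r of -0.47. The P3 values enter both quantities, which by itself favours a negative r. The size of a fall to the floor depends on where the floor is set. A miRNA without both P7 arrays of an oxygen level above background entered the test only through P3, which favours a fall.

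On the higher side, the high-numbered discovery sets were prominent, miRNAs such as miR-705 and miR-1892 that entered the catalogue from cloning and sequencing screens and have few described functions. Of 71 on the array 23 were tested. Of these 18 rose and none fell, beside 22.7% and 30.7% of all tested miRNAs, and all 23 had a positive change (median 2.52). Members without both P3 arrays of an oxygen level above background, such as miR-1892 and miR-1896, entered the test only through P7. Their direction was largely set by that. Under all 8 processings the median of the 23 stayed above 0, at 0.93 without scaling. The number of them called higher was 8 without scaling, 8 with the total signal and 21 with normexp. Over all 225 it was 16, 20 and 111. MiR-1892 was 2.55, 1.5, 2.50 and 1.5 at P3 and 5.15, 6.70, 3.62 and 8.70 at P7. The P7 values on slide 2 were the highest, and P7 and P3 did not overlap. It rose 16.4-fold (log2 4.03 ± 0.94, adjusted p = 0.0118), or 14.2-fold with own floors, and by 1.86 on slide 1. MiR-1896 was above background on 0 of 4 P3 arrays and 3 of 4 P7 arrays and was at least 11.7-fold higher at P7 (adjusted p = 0.0109). MiR-714, miR-1894-3p, miR-705 and miR-1897-5p rose by 3.91, 3.66, 3.53 and 3.46; with the software's total signal the change of miR-714 turned to -0.60. Of the 51 higher miRNAs 17 were above background on at most 2 P3 arrays, so that part of the signal they gained lay near background at P3.

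**Figure D4:**
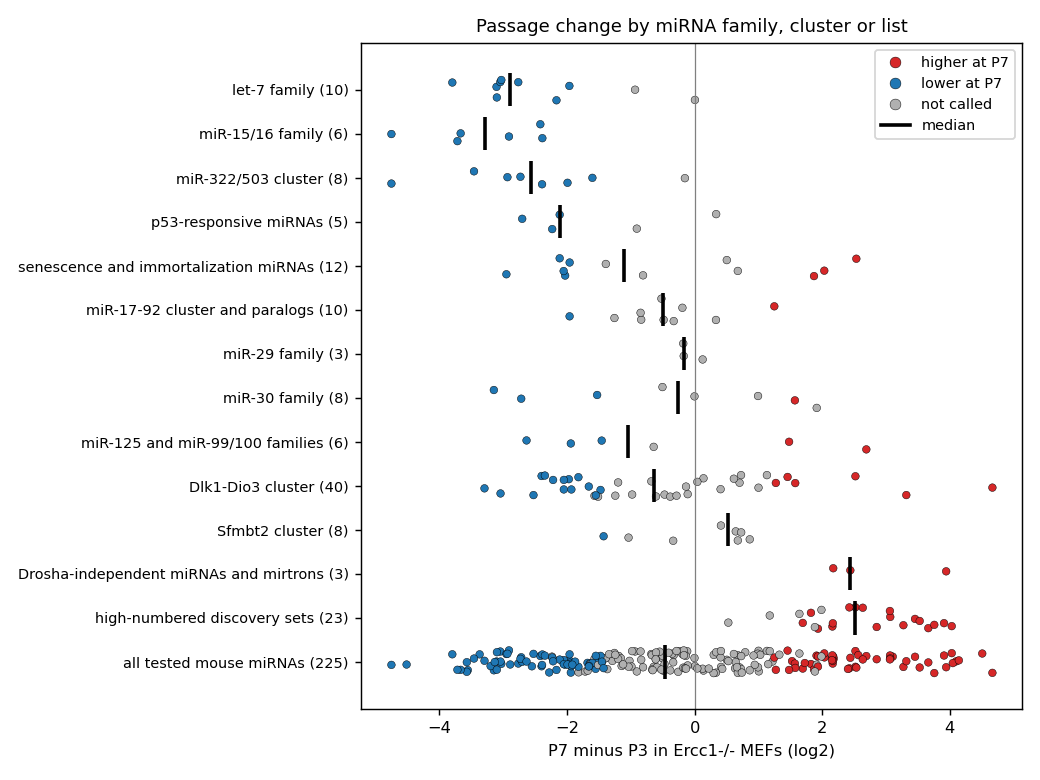
Change from P3 to P7 in Ercc1-/- MEFs (log2, x axis) of the tested members of 13 families, clusters or lists and of all 225 tested miRNAs, with the number tested in brackets; each point is 1 miRNA coloured by its call, and the black bar is the median. The called members of the let-7 and miR-15/16 families lie left of 0 (miR-98 at 0.02 with normexp), and the discovery sets and Drosha-independent miRNAs right of it.

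Brighter miRNAs rose as well. MiR-494, of the imprinted Dlk1-Dio3 cluster, was 7.65, 6.86, 7.50 and 7.68 at P3 and 9.75, 13.44, 10.09 and 15.08 at P7. It had the largest rise, 25.5-fold (log2 4.67 ± 0.91, adjusted p = 0.0087), but the replicates differed in size, 2.35 on slide 1 and 6.99 on slide 2. MiR-188-5p, from an intron of Clcn5, was between 3.85 and 4.33 at P3 and 6.31, 9.76, 5.80 and 12.20 at P7, a change of 4.51 ± 0.97. Its neighbour miR-362-3p changed by -1.87 in the same cells, a sign that turned with normexp. MiR-671-5p, which directs cleavage of the circular RNA Cdr1as, rose by 4.14, miR-483, from an intron of Igf2, by 4.05, and miR-135a* by 4.10. MiR-290-5p, of a cluster typical of embryonic stem cells, rose by 2.18 while 10 of the 14 cluster members on the array were not above background on any Ercc1-/- array.

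All 3 tested miRNAs that are made without the nuclease Drosha rose, beside 22.7% of all tested miRNAs. They are the mirtrons miR-1224 (3.94) and miR-877 (2.44), which are spliced introns, and miR-320 (2.17), whose precursor is transcribed directly. Their sign was positive under each of the 8 processings, but with normexp that held for 168 of all 225 miRNAs. Without scaling 1 of the 3 was called higher, and with the total signal 2. MiR-1224 was 8.04, 8.25, 8.43 and 9.11 at P3 and 10.08, 13.50, 9.63 and 16.40 at P7. All P7 arrays exceeded all P3 arrays, and the 2 on slide 2 by far the most. Within the Dlk1-Dio3 cluster, which is expressed from the maternal chromosome, 6 of 40 tested members rose and 14 fell (median -0.64), beside 22.7% and 30.7% of all tested miRNAs. MiR-370 and miR-134 rose by 3.32 and 2.52, the latter at -0.0047 with the total signal, whereas miR-299* and miR-154* changed by -3.29 and -3.04, the latter at 0.20 with normexp. With normexp the median of the cluster turned to 0.57, with 15 members called higher and 1 lower.

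MiR-129-5p, a brain-enriched miRNA that targets cell cycle kinases, was 2.34, 2.39, 1.5 and 1.92 at P3 and 4.38, 5.57, 4.17 and 6.45 at P7. It was above background on 1 of 4 P3 and 4 of 4 P7 arrays and rose by 3.11 ± 0.52 (limma adjusted p = 0.00523). The rise was 2.36 on slide 1 and 3.86 on slide 2. MiR-129-5p thus entered the test only through P7, which favours a rise. With own floors the change was 3.01. MiR-222, a repressor of the Cdk inhibitor p27, was 4.32, 3.80, 3.71 and 3.99 at P3 and 6.13, 6.35, 5.48 and 6.01 at P7. Its P7 values were the tightest among the 51 higher miRNAs (SD 0.37), and it rose 4.1-fold (adjusted p = 0.0107). MiR-221, its partner with the same seed from the same transcript, was 6.60, 6.09, 6.35 and 5.94 at P3 and 5.52, 4.57, 6.59 and 3.74 at P7, which did not pass the test (-1.14 ± 0.52, limma adjusted p = 0.0891).

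Among 12 tested miRNAs linked to senescence or immortalization of fibroblasts, 3 rose and 5 fell (median -1.10, turning to 0.40 with normexp), beside 22.7% and 30.7% of all tested miRNAs. With the total signal none was called higher and 1 lower. MiR-22, which can induce senescence in fibroblasts, rose by 1.87 (from between 11.04 and 11.14 at P3 to 12.56, 13.51, 11.67 and 14.12), while the other strand of its hairpin, miR-22*, changed by -2.03 and did not pass with own floors (-1.11, limma adjusted p = 0.138). MiR-28* was at the floor on all 4 P3 arrays and rose from it by 2.03 (1.83 with own floors). It thus entered the test only through P7, which favours a rise. MiR-28 changed by -2.05 (-1.59 with own floors). MiR-21*, of the hairpin of the abundant fibroblast miRNA miR-21, rose by 2.54, and miR-21 itself changed by -1.39 without passing the test (limma adjusted p = 0.0814). MiR-31* changed by -2.95. With normexp miR-22* and miR-28 turned positive, and with the software's total signal miR-21* turned negative, at -1.51.

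No tested strand of the miR-34 family, direct targets of p53, was called higher at P7 in the main fit. MiR-34a was 8.99, 9.28, 9.60 and 9.87 at P3 and 7.75, 7.26, 9.28 and 5.0 at P7. The array in 20% O2 of replicate 1 lay within the P3 range and that of replicate 2 far below it. The change was -2.11 ± 0.77 (limma adjusted p = 0.0447), and -0.78 on slide 1. MiR-34b-5p and miR-34c changed by -2.23 and -2.70. MiR-34b-3p (0.34) and miR-34c* (-0.91) did not pass the test. The 5 p53-responsive miRNAs tested are all strands of the miR-34 family. Of these 3 fell and none rose, beside 30.7% and 22.7% of all tested miRNAs. With normexp 2 were called higher and 3 lower, with quantile normalization or the 75th percentile of the common miRNAs 1 was called lower, and with the total signal none was called. The 3 tested members of the miR-29 family, which p53 signaling raises in progeroid tissue, lay between -0.18 and 0.13 with none called.

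Some neighbours in 1 cluster and members of 1 seed family moved apart. MiR-99b (chr17:17830194-17830215) and let-7e (chr17:17830366-17830387) lie side by side with miR-125a. Let-7e fell by 2.76. MiR-99b was 6.66, 6.36, 6.99 and 6.75 at P3 and 7.85, 8.09, 7.70 and 9.06 at P7, a rise of 1.48 ± 0.46 (adjusted p = 0.0264) that turned to -0.11 without scaling. MiR-125a-3p rose by 2.69, and miR-125a-5p, from the same hairpin, changed by -0.64 without passing. MiR-99a (chr16:77598940-77598961), which shares the seed of miR-99b and differs from it at 4 of 22 positions, lies next to a copy of let-7c, and these changed by -2.63 and -2.17. In the miR-30 family, miR-30c and miR-30b changed by -3.15 and -2.72 while miR-30d rose by 1.57, a sign that turned to -0.02 without scaling. The miR-17 cluster and its paralogs, a growth-promoting group, had 1 member called in each direction among 10 tested, miR-17* at 1.25 and miR-20a at -1.96. Over all tested miRNAs 22.7% were called higher and 30.7% lower. MiR-17* was negative without scaling and with the total signal, and miR-20a positive with normexp. MiR-20a did not pass with own floors (limma adjusted p = 0.0687). Without scaling 7 of the 10 were called lower and none higher, and with normexp 6 higher and none lower. Of the 7 tested miRNAs among miR-199, miR-214, miR-143, miR-145 and their partner strands (median -1.34), miR-199a-3p fell, as given above, miR-199b* fell by 1.64 and miR-145 rose by 1.53, which turned to -0.07 without scaling. In the Sfmbt2 cluster miR-669f, at -1.43, was the 1 member of 8 that passed; it turned to 0.58 with normexp and did not pass with own floors (limma adjusted p = 0.0561). With normexp 7 of the 8 were called higher and none lower, and without scaling 3 lower and none higher.

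Base composition was also compared in the hairpin precursors, which could be matched for more miRNAs. A hairpin was matched by name for 41 of the 51 higher and 62 of the 69 lower miRNAs. The share of G and C in them had a median of 54.4% (quartiles 43.8% and 60.0%) for the higher, 45.8% (41.9% and 51.8%) for the lower and 51.4% (45.1% and 56.4%) for 87 miRNAs not called, so that the groups overlapped. Members of 1 cluster and family share sequence, so that these miRNAs are not independent, and the part of base composition in the signals was not tested.

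Each oxygen level was also compared on its own, since 3% O2 delays senescence. In 3% O2, 6 of the 225 miRNAs passed (2.67%), all lower: miR-322 (-5.97), miR-26b (-5.07), miR-450a-5p (-4.36), let-7f (-4.32), miR-10b (-3.69) and miR-218 (-3.53), each with a limma adjusted p of 0.0379. With own floors 12 passed, all lower, and miR-10b and miR-218 were not among them. At an unadjusted p under 0.05 there were 74. Leaving out 1 array gave between 0 and 105 calls in 3% O2, 105 without either P7 array in 20% O2, 27 without either P3 array in 20% O2, 31 without the P3 array in 3% O2 of replicate 1 and 0 without any of the other 3. In 20% O2 limma called 0 (80 at an unadjusted p under 0.05), and the methods' test called 4 at its threshold and 0 after Benjamini-Hochberg. Leaving out 1 array gave 164 calls without the P7 array in 20% O2 of replicate 1, 23 without the P3 array of that replicate in 20% O2, 31 without either P3 array in 3% O2 and 0 without any of the other 4. The 5 miRNAs with the smallest p in 20% O2 were miR-10b (-3.42), miR-218 (-3.21), miR-204 (-3.23), miR-129-5p (3.60) and miR-497 (-3.75), each with an adjusted p of 0.102. The difference of the passage change between 20% and 3% O2 was called by limma for 0 of 225 miRNAs, with 0 at an unadjusted p under 0.05 and a smallest adjusted p of 0.998. The smallest p-values belonged to miR-337-3p (20% minus 3% change 2.00), miR-376b* (1.87), miR-10a (1.89), miR-376b (1.72) and miR-322 (2.44 ± 1.47, SE). With 2 arrays per group, differences of that size were within the error. MiR-210, the miRNA that hypoxia induces, marked the oxygen level on every array: at P3 it was 8.75 and 9.11 in 3% O2 and 5.50 and 5.91 in 20% O2, and at P7 10.54 and 11.16 against 6.71 and 8.52. On top of that difference it rose with passage by 1.91 ± 0.45 (adjusted p = 0.0118), in all 4 pairs and by 1.92 in 3% and 1.91 in 20% O2.

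The same passage change was set beside WT MEFs to show where Ercc1-/- cells differed. In WT MEFs 10 of 235 miRNAs passed (4.26%) in the fit of all 16 arrays, 1 higher and 9 lower (0.426% and 3.83%), among them miR-10b (-2.69), miR-218 (-2.76), miR-204 (-2.42) and miR-450a-5p (-2.02). Of the 51 miRNAs higher in Ercc1-/- MEFs 49 had a positive change in WT MEFs, and of the 69 lower ones 66 a negative one. Over all 235 miRNAs the WT change was positive in 96 and negative in 139. The passage change differed between the genotypes for 0 of 235 miRNAs in limma, with 18 at an unadjusted p under 0.05. The smallest adjusted p, 0.0632, was that of miR-129-5p and miR-497. MiR-129-5p was at the floor on all 8 WT arrays, so that its change in WT MEFs could not be measured. Its difference of 3.11 ± 0.62 is the rise in Ercc1-/- MEFs set against WT values fixed at the floor. MiR-497 went from 5.89 ± 0.60 to 5.96 ± 1.43 in WT MEFs (SD, n = 4) and from 6.50 ± 0.44 to 3.59 ± 1.56 in Ercc1-/- MEFs, a difference of -2.97 ± 0.61. With own floors miR-497 was the 1 miRNA that passed for the difference (-2.40 ± 0.39, limma adjusted p = 0.0179), and miR-129-5p did not pass. MiR-335-5p (-3.74 ± 1.09), miR-196b (1.95) and miR-675-3p (1.56) followed, with adjusted p of 0.343. The last 2 were too dim in Ercc1-/- MEFs to be tested there. Without the Ercc1-/- array at P7 in 20% O2 of replicate 1, 24 miRNAs passed for this difference, and without that of replicate 2, 3.

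**Figure D5:**
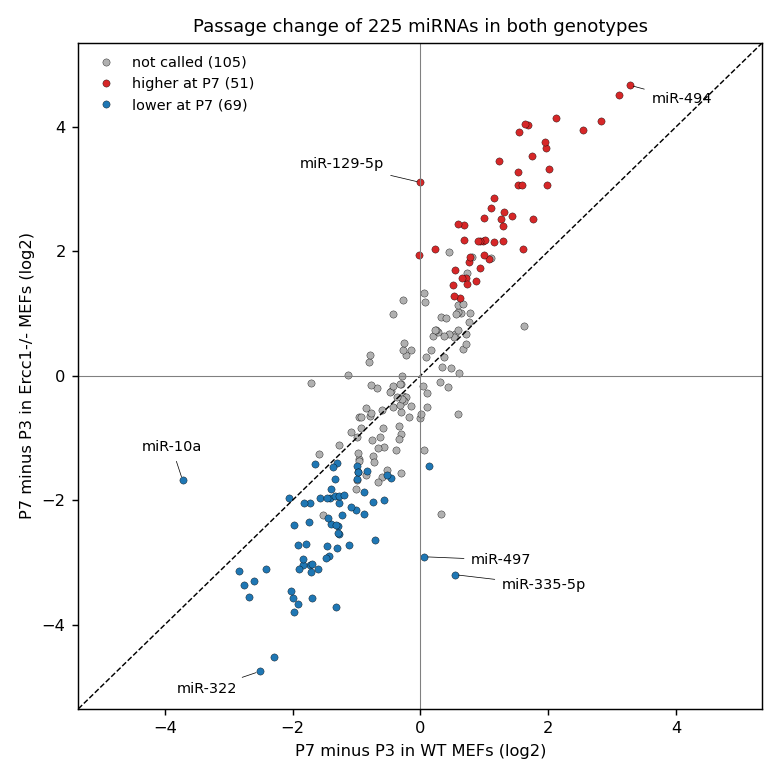
Change from P3 to P7 (log2) in WT MEFs (x axis) and Ercc1-/- MEFs (y axis) of the 225 miRNAs tested in Ercc1-/- MEFs, coloured by their call in Ercc1-/- MEFs; the dashed line marks equal change. Most called miRNAs lie on the same side of 0 in both genotypes, and miR-129-5p (3.11 against 0.00), miR-497 (-2.91 against 0.06) and miR-335-5p (-3.20 against 0.54) lie near the vertical axis. MiR-129-5p was at the floor on all WT arrays.

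A list of 36 miRNAs picked on these same arrays for a passage change of Ercc1-/- MEFs in 3% O2, and 4 in 20% O2, holds miRNAs not yet described. Since it was chosen on these samples it is not independent evidence of direction. The study also ran qRT-PCR on part of the 36. It reports the lower ones it chose, miR-449a, miR-128, miR-455* and miR-872 among them, as lower. Of the higher ones it chose, it reports miR-680, miR-320 and miR-22 as higher and the others as unchanged or lower. Of the 36, 28 were tested, 14 rose and 13 fell. The higher members not described above were miR-1895 (3.27), miR-680 (3.06), miR-721 (2.86) and miR-1906 (2.43). Lower ones were miR-369-5p (-2.35), miR-872 (-2.28), miR-380-3p (-2.05), miR-337-3p (-2.05), miR-382* (-1.97), miR-543 (-1.55), miR-30e* (-1.53) and miR-455* (-1.45). These were dim, above background on at most 1 P7 array, and all 8 turned positive with normexp. MiR-380-3p, miR-382*, miR-543, miR-30e* and miR-455* did not pass with own floors. MiR-362-5p (-0.17) did not pass. MiR-29b*, miR-449a, miR-340-3p, miR-675-3p, miR-466a-3p, miR-128, miR-192 and miR-496 had no Ercc1-/- group with both arrays above background and so were not tested; miR-449a was above background on none of the 8. Of the 4 in 20% O2, miR-24-2* rose by 2.17, a sign that turned to -1.37 with the total signal.

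In cultured cells, fewer cells that hold a miRNA and less of it per cell cannot be told apart. Scaling also fixes the mean of the common miRNAs, so that every value is relative to them and a change in total miRNA content cannot be read from it.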

How the data were processed

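Cy3-labelled total RNA was hybridized to 1-colour mouse miRNA arrays. The authors deposited intensity values per spot, background-subtracted but not scaled between arrays by Agilent Feature Extraction (10.7.1.1 per the file headers), and a series table of summed intensity per miRNA. Each miRNA has 20 spots over 1 to 4 probes, and after outlier spots were dropped the processed signal was averaged by probe and then by miRNA. These means were divided by an array factor that equalized the mean log2 signal of 57 mouse miRNAs above background on all 16 arrays, raised to a floor of 2.82 (the median of the arrays' lowest scaled signals above background) and log2 transformed. A miRNA was above background where at least 0.5 of the spots of a probe were well above it, and was tested where it was so on both arrays of at least 1 group. A miRNA dim at 1 passage thus entered only through the other, which favours a difference between them. P7 and P3 were compared with limma 3.58.1 in R 4.3.3, with oxygen and replicate number as fixed blocks and Benjamini-Hochberg adjustment over all tested miRNAs. The fit was tested on simulated data with independent noise on each array and no floor. That test therefore cannot show how the fit behaves when arrays of 1 replicate number and passage are correlated, as they were here.

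Replicate number and slide coincide. Differences between the slides correlated at 0.771 between oxygen levels at P3 and 0.817 at P7, and at 0.0776 to 0.262 between passages. No depth exists for arrays, and their number limits the precision. A miRNA not above background on any array of a passage has only a bound there, set from the lowest scaled signal above background on each array (1.02 to 18.0). Named miRNAs were up to 12 called in each direction with the largest change, moved one way in all 4 pairs and above background on at least 3 arrays of the higher passage, the leading members of each list, the leading miRNAs of the other contrasts and those the study names; a few list neighbours (miR-26a, miR-125a-5p, let-7b) were added with their values in view. The miRNAs and lists were chosen with earlier results of these data known. Alternatives covered scaling, background correction (normexp, offset 50, on median signals, since a mean signal was not used here), the floor, the filter, the blocks, the arrays fitted, single arrays left out and the methods' test, an unpaired unequal variance test at 2-fold. The change on slide 1 alone, without the P7 arrays of replicate 2, was added after seeing the data and is a value with no test. A floor per array, its own lowest signal above background where that exceeds the common floor, was added likewise.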

Additional observations from a re-analysis of the deposited data

Results flagged for a closer look

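In 21 of 206 groups of 4 arrays examined, 1 array stood apart from the other 3 by more than the 95% critical value of Dixon's test. Chance alone marks about 1 in 20 groups, and many of these groups hold ties at the floor, where any array above it stands apart.

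Of these, 16 were the P7 array in 20% O2 of replicate 1, the brightest P7 array, being above the other P7 arrays, which lay at or near the floor of 1.5: miR-22* at 4.71, miR-154* at 4.53, miR-369-5p at 3.96, miR-450a-5p at 3.93, miR-872 at 3.67, miR-380-3p at 3.64, miR-382* at 3.59, miR-543 at 3.43, miR-30e* at 2.97, miR-10b at 2.63, miR-496 at 2.58, miR-362-5p at 2.52, miR-128 at 2.42, miR-466a-3p at 2.36, miR-218 at 2.34 and miR-192 at 2.20. On the same array miR-125a-5p was 7.09 against 6.15 to 6.26 on the other P7 arrays. At P3 miR-721 was 4.87 in 20% O2 of replicate 1 against 4.59 to 4.62 on the others, and miR-450b-3p was 2.65 in 20% O2 of replicate 2 against 3.70 to 3.87. MiR-196b was above the floor on 1 array of each passage, at 2.13 at P3 in 20% O2 of replicate 2 and at 1.77 at P7 in 3% O2 of replicate 2.

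The array also holds probes for 39 viral miRNAs, which the comparisons do not use. At P3, 3 were above background on each array; at P7, 3 in 3% O2 of replicate 1 but 6 on the other P7 arrays, namely both in 20% O2 and that in 3% O2 of replicate 2. The part of nonspecific signal in the P7 values was not tested.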

How the results depend on the processing

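In place of 120 calls there were 48 (20 higher, 28 lower) with the software's total signal, 71 with a floor 4 times as high, 39 of 70 (25 higher, 14 lower) among miRNAs above background on all 8 arrays, 3 with no filter, 0 with the random block, and 78 by the methods' test at its threshold, 8 after Benjamini-Hochberg; the causes were not tested. Other alternatives kept the count within 1.5 times: 95 with no replicate block, 142 with normexp, 137 without scaling, 120 with the deposited series table, 112 with own floors (added after seeing the data). Single arrays left out gave 14 to 153. The higher and lower calls numbered 47 and 74 with the 75th percentile of all miRNAs, and 50 and 65 with quantile normalization.

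In 3% O2, 6 calls became 0 with no replicate block, both 75th percentiles, quantile normalization, total signal, the software's detection, both floors, no filter and the adjusted methods' test, and 80 without scaling, 17 with the mean over all, 11 with normexp, 43 with all 16 arrays, 12 with own floors and 21 by the methods' test at its threshold; single arrays left out gave 0 to 105. In 20% O2, 0 calls became 62 without scaling, 6 with normexp, 1 with the higher floor, 5 with all 16 arrays and 4 by the methods' test; single arrays left out gave 0 to 164. The oxygen difference had 0 calls under every alternative run. For the difference between genotypes, 0 became 1 without scaling, with the mean over all, with quantile normalization, with the higher floor and with own floors, and 2 with the 75th percentile of all and with the software's detection; single arrays left out gave 0 to 24. The difference in miRNAs above background was -72.5 to -29.8 and that in unscaled signal -2.15 to -1.04 with single arrays left out; without the P7 array in 20% O2 of replicate 1 the latter had an exact permutation p of 0.0286.

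Directions turned for miRNAs named above. Without scaling: miR-30d -0.022, miR-99b -0.11, miR-17* -0.34, miR-145 -0.066. With total signal: miR-714 -0.60, miR-21* -1.51, miR-24-2* -1.37, miR-134 -0.0047, miR-17* -0.35. With normexp, whose offset by construction lifts dim miRNAs on dim arrays: miR-10b 0.060, miR-218 0.17, miR-98 0.019, miR-542-3p 0.18, miR-28 0.21, miR-22* 0.60, miR-154* 0.20, miR-10a 0.35, miR-362-3p 0.57, miR-669f 0.58, miR-455* 0.77, miR-20a 0.49, miR-450b-3p 0.71, miR-872 0.62, miR-543 0.82, miR-362-5p 1.02, miR-30e* 0.84, miR-382* 0.64, miR-337-3p 0.21, miR-369-5p 0.60, miR-380-3p 0.63, miR-376b* 0.66.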
